A study of Arabidopsis thaliana with 12 samples.

Results

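The xyloglucan endotransglucosylase/hydrolases (XTHs) and the expansins are the 2 large families of proteins that loosen plant cell walls, and their transcripts were followed here in dark-grown Arabidopsis thaliana seedlings. The members are a list of 45 genes, 23 XTH and 22 expansin genes, matched by gene identifier among the 31916 gene names that the tables of the series hold. The expansins comprise 17 of the alpha class (EXPA), 2 of the beta class (EXPB) and 3 of the expansin-like A class (EXLA). Each of the 3 tables held an entry for 43 of the 45 members, though not for the same ones, and 39 could be analysed for light, 40 for det1-1 and 37 for pifq.

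Xyloglucan is the hemicellulose that coats and tethers cellulose microfibrils in the primary wall. XTHs cut a xyloglucan chain and rejoin the cut end to another chain or, in a few members, to water, so they can loosen a wall or mend it. Expansins let wall polymers slip past each other under turgor without cutting them. A seedling in the dark lengthens its hypocotyl by cell elongation and keeps its cotyledons closed. Light stops that elongation and opens the cotyledons, which then expand.

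The groups were wild type (Columbia) moved to white light for 6 h (Col_DL6h, called light below), the mutant det1-1 kept in the dark (det1-1_D), the mutant pifq kept in the dark (pifq_D), and wild type kept in the dark (Col_D). Each had 3 libraries from whole seedlings of 4 days, all of which had been in the cold and then in light for 12 h before the dark period. DET1 acts in the nucleus to hold back photomorphogenesis. The PIFs are transcription factors that drive growth in the dark. The line pifq lacks the function of PIF5, PIF4, PIF3 and PIF1, and det1-1 is a weak allele that leaves some DET1 function. By its title, the study concerns how DET1 acts on the PIFs in the dark.

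Levels are FPKM as deposited by the authors, that is, sequenced fragments scaled to transcript length and to the mapped fragments of the group, and each gene has 1 such value in a group. Values per library, read counts and p-values were not used here, so the depth is unknown, no difference below has a replicate check, and no test was made. A member is called higher or lower where it differed by at least 2-fold from the dark wild type of the same table. The 3 comparisons share that dark wild type, so they are not independent of each other. In bulk seedlings, fewer cells of a type and less RNA per cell cannot be told apart. Transcripts of the mutated genes were low in part: PIF3 was at 0.802 FPKM in pifq against 30.2 FPKM in dark wild type and PIF5 was at 1.39 FPKM in pifq against 9.44 FPKM in dark wild type. PIF1, at 23.7 FPKM in pifq against 19.2 FPKM in dark wild type, and PIF4, at 20.9 FPKM in pifq against 20.5 FPKM in dark wild type, were not lower. For PIF4 that comparison is doubtful, because the other tables give 11.2 and 10.4 FPKM for the same dark seedlings, further apart than the 1.5-fold allowed for members. DET1 was at 16.7 FPKM in det1-1 against 15.1 FPKM in dark wild type, so its level does not check the label of det1-1. PORA, the protochlorophyllide reductase of etiolated tissue, was at 3.08 FPKM in light, 3.72 FPKM in det1-1 and 181 FPKM in pifq, against 161 to 178 FPKM in dark wild type. The pollen gene VGD1 was at or near 0 in every group.

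In light, 18 of 39 analysed members (46.2%) were at least 2-fold lower and 9 (23.1%) at least 2-fold higher, beside 10.1% lower and 12.4% higher among all 14810 genes analysed. The median log2 fold of the members was -0.46, against 0.02 for all genes. In det1-1, 9 of 40 members (22.5%) were lower and 8 (20.0%) higher, beside 9.71% lower and 17.3% higher among 14844 genes, with a median of -0.41 against -0.03. In pifq, 15 of 37 members (40.5%) were lower and 6 (16.2%) higher, beside 13.2% lower and 12.9% higher among 15014 genes, with a median of -0.75 against 0.01. The share of members called lower was thus above the share of all genes in each comparison. The members were chosen with earlier results of these data known, so that difference is a description and may be in part built in. The share called higher was near that of all genes in det1-1 and pifq, so those counts say nothing particular of the members. By family, 8 of 19 XTHs were lower and 5 higher in light, 5 of 20 lower and 6 higher in det1-1, and 9 of 19 lower and 2 higher in pifq. Of the expansins, 10 of 20 were lower and 4 higher in light, 4 of 20 lower and 2 higher in det1-1, and 6 of 18 lower and 4 higher in pifq. The same shares of all genes stand beside these counts and those of the smaller groups below, where 1 gene changes the share widely.

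**Figure D1:**
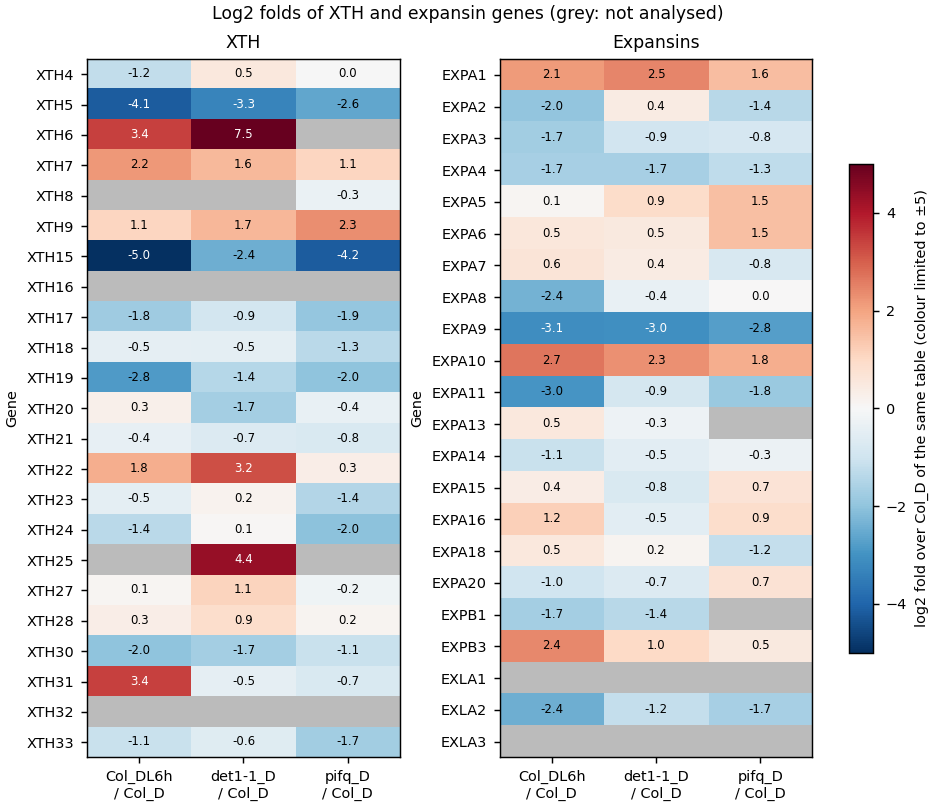
Log2 fold over the dark wild type of the same table for each member (rows) in light, det1-1 and pifq (columns), with the value written in each cell grey where a member was not analysed, and colours limited to ±5. XTH15 and XTH5 were among the lowest cells, at -5.002 and -4.15 in light, while XTH6 was at 7.52 in det1-1.

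Group I of the XTHs held the most abundant member and also some of the widest folds. Of its analysed members, 2 of 5 were lower and 3 higher in light, 1 of 5 lower and 3 higher in det1-1, and 1 of 5 lower and 2 higher in pifq. XTH4 (AT2G06850, chromosome 2, 2763449 to 2765743, plus strand, TAIR10.1, as for all positions here), which acts in expanding and in vascular tissue, was at 655 FPKM in light against 1534 FPKM in dark wild type (log2 -1.23). XTH4 was at 2065 FPKM in det1-1 against 1422 FPKM in dark wild type (log2 0.54), and at 1447 FPKM in pifq against 1486 FPKM in dark wild type (log2 -0.04). It had the highest level of all members in dark wild type, and of the compared groups only light was more than 2-fold lower. XTH5 (AT5G13870, chromosome 5, 4474922 to 4477090, minus strand), a close relative of XTH4, was at 1.51 FPKM in light against 26.7 FPKM in dark wild type (log2 -4.15). XTH5 was at 2.52 FPKM in det1-1 against 24.8 FPKM in dark wild type (log2 -3.30), and at 4.28 FPKM in pifq against 26.0 FPKM in dark wild type (log2 -2.60). The 2 relatives therefore differed: XTH5 was lower in light and in both mutants, and XTH4 was under 2-fold in both mutants and 2.34-fold lower in light.

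XTH7 (AT4G37800, chromosome 4, 17775370 to 17777445, minus strand) was at 326 FPKM in light against 72.1 FPKM in dark wild type (log2 2.17). XTH7 was at 205 FPKM in det1-1 against 66.9 FPKM in dark wild type (log2 1.62), and at 148 FPKM in pifq against 70.2 FPKM in dark wild type (log2 1.07). It was most abundant in light. XTH9 (AT4G03210, chromosome 4, 1415617 to 1417444, plus strand), which is expressed in shoot apices and young stems, was at 20.7 FPKM in light against 9.75 FPKM in dark wild type (log2 1.08). XTH9 was at 28.5 FPKM in det1-1 against 9.04 FPKM in dark wild type (log2 1.66), and at 47.2 FPKM in pifq against 9.47 FPKM in dark wild type (log2 2.32). Both were higher in all compared groups, XTH7 most in light and XTH9 most in pifq. XTH6 (AT5G65730, chromosome 5, 26298728 to 26300529, plus strand) was under 1 FPKM in dark wild type, at 9.29 FPKM in light against 0.867 FPKM in dark wild type (log2 3.42) and 148 FPKM in det1-1 against 0.804 FPKM in dark wild type (log2 7.52). A level under 1 FPKM in dark wild type can be analysed only when the other group is higher, so the direction of this call was fixed by the minimum level and its size was not. The table for pifq holds 2 entries under this identifier, with 45.9 FPKM in pifq against 0.838 FPKM in dark wild type (log2 5.78) and 10.3 FPKM in pifq against 23.03 FPKM in dark wild type (log2 -1.17), and it was not counted there. XTH8 (AT1G11545) had an entry in the pifq table alone, with 102 FPKM in pifq against 129 FPKM in dark wild type (log2 -0.35).

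In group II, which has the most members, 4 of 9 analysed were lower in light and 1 higher, 3 of 10 lower in det1-1 and 2 higher, and 6 of 9 lower in pifq and 0 higher. XTH15 (AT4G14130, chromosome 4, 8137020 to 8138392, minus strand), also called XTR7 and known as a gene of shaded and etiolated stems, was at 34.2 FPKM in light against 1097 FPKM in dark wild type (log2 -5.002). XTH15 was at 189 FPKM in det1-1 against 1017 FPKM in dark wild type (log2 -2.42), and at 59.0 FPKM in pifq against 1064 FPKM in dark wild type (log2 -4.17). It was the second most abundant member in dark wild type and was 32.04-fold lower in light, 5.37-fold lower in det1-1 and 18.0-fold lower in pifq. The level left in det1-1 was above those in light and pifq, although the tables were normalized separately and that difference was not tested. The gene overlaps AT4G14120 on the other strand by 382 bases, and the handling of strand is not given in the sources used here; AT4G14120 itself was under 2 FPKM in every group.

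XTH24 (AT4G30270, chromosome 4, 14819192 to 14820595, minus strand), first described as the meristem gene MERI5B, was at 341 FPKM in light against 878 FPKM in dark wild type (log2 -1.36). XTH24 was at 859 FPKM in det1-1 against 814 FPKM in dark wild type (log2 0.08), and at 208 FPKM in pifq against 855 FPKM in dark wild type (log2 -2.04). It was lower in light and in pifq, and in det1-1 it was near the dark level. XTH23 (AT4G25810) had a like order at lower levels, with 57.9 FPKM in light against 82.3 FPKM in dark wild type (log2 -0.51). XTH23 was at 85.4 FPKM in det1-1 against 76.3 FPKM in dark wild type (log2 0.16), and at 29.3 FPKM in pifq against 79.9 FPKM in dark wild type (log2 -1.45). It passed 2-fold in pifq. XTH22 (AT5G57560, chromosome 5, 23307006 to 23308680, minus strand), the touch-inducible gene TCH4, was at 99.5 FPKM in light against 28.5 FPKM in dark wild type (log2 1.80). XTH22 was at 245 FPKM in det1-1 against 26.4 FPKM in dark wild type (log2 3.21), and at 35.0 FPKM in pifq against 27.6 FPKM in dark wild type (log2 0.34). Its 9.28-fold higher level in det1-1 and 3.49-fold higher level in light stood beside 1.27-fold in pifq. Next to XTH22 on chromosome 5 lies XTH25 (AT5G57550), which was at 3.01 FPKM in det1-1 against 0.146 FPKM in dark wild type (log2 4.37) and stayed under 0.2 FPKM in both groups of the other tables. As with XTH6, the level under 1 FPKM in dark wild type meant that XTH25 could be analysed only as higher. It is among the members of group II counted as higher in det1-1.

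XTH17, XTH18, XTH19 and XTH20 are closely related genes known from elongating root tissue. XTH17 (AT1G65310, chromosome 1, 24257054 to 24258506, plus strand) was at 102 FPKM in light against 353 FPKM in dark wild type (log2 -1.79). XTH17 was at 159.8 FPKM in det1-1 against 304 FPKM in dark wild type (log2 -0.93), and at 89.8 FPKM in pifq against 342 FPKM in dark wild type (log2 -1.93). It passed 2-fold as lower in light and pifq and was just under it in det1-1. XTH18 (AT4G30280, chromosome 4, 14825757 to 14827211, minus strand) was at 162 FPKM in light against 223 FPKM in dark wild type (log2 -0.46). XTH18 was at 140.3 FPKM in det1-1 against 194 FPKM in dark wild type (log2 -0.47), and at 86.1 FPKM in pifq against 216 FPKM in dark wild type (log2 -1.33). It was below dark wild type throughout and passed 2-fold in pifq. XTH19 (AT4G30290, chromosome 4, 14828712 to 14830224, minus strand) was at 25.7 FPKM in light against 183 FPKM in dark wild type (log2 -2.83). XTH19 was at 59.4 FPKM in det1-1 against 159.9 FPKM in dark wild type (log2 -1.43), and at 46.8 FPKM in pifq against 188 FPKM in dark wild type (log2 -2.005). XTH18 and XTH19 lie side by side on chromosome 4, and XTH19 was at least 2-fold lower in every comparison, unlike XTH18, which was under 2-fold in light and det1-1. XTH20 (AT5G48070) was far less abundant, with 6.15 FPKM in light against 5.12 FPKM in dark wild type (log2 0.27). XTH20 was at 1.41 FPKM in det1-1 against 4.63 FPKM in dark wild type (log2 -1.71), and at 3.87 FPKM in pifq against 4.96 FPKM in dark wild type (log2 -0.36). Of their 32-base transcript stretches, 8.69%, 7.86%, 5.23% and 1.83% occur elsewhere in the genome for XTH17, XTH18, XTH19 and XTH20, so a part of their reads could be shared, and the handling of such reads is not given in the sources used here. XTH21 (AT2G18800), needed for root growth, was between 1.78 and 3.56 FPKM in all groups and was under 2-fold throughout, with 12.8% of its stretches repeated.

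PIFs bind the G-box CACGTG and the related PBE-box CACATG, and a PBE-box lies close before the start of XTH17 and XTH18. The stretches are shown because the 2 genes share them: in XTH17 (chr1:24256951-24257036, plus strand) and XTH18 (chr4:14827229-14827314, minus strand) 71 of 86 bases are the same, with an unbroken run of 56 that holds the match. Each is written 5′ to 3′ on the gene's strand with 40 bases on each side of the match, which is in capitals (here CATGTG, the PBE-box read on the other strand).
XTH17: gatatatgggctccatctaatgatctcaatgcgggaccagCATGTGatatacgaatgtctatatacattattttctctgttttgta
XTH18: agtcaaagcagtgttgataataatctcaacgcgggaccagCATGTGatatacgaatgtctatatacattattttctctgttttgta

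In group III, 2 of 5 analysed members were lower and 1 higher in light, 1 of 5 lower and 1 higher in det1-1, and 2 of 5 lower and 0 higher in pifq. XTH31 (AT3G44990, chromosome 3, 16446935 to 16448844, minus strand), whose product cuts xyloglucan with water more than it rejoins it, was at 1100.5 FPKM in light against 103 FPKM in dark wild type (log2 3.41). XTH31 was at 69.6 FPKM in det1-1 against 95.8 FPKM in dark wild type (log2 -0.46), and at 59.7 FPKM in pifq against 100.3 FPKM in dark wild type (log2 -0.75). It was 10.7-fold higher in light and had the highest level of all members there, while in both mutants it was below the dark wild type by less than 2-fold. XTH32 (AT2G36870, chromosome 2, 15472607 to 15474828, minus strand), the other member of that hydrolytic branch, was at 249 FPKM in light against 8.75 FPKM in dark wild type (log2 4.83) and 25.2 FPKM in det1-1 against 8.11 FPKM in dark wild type (log2 1.64). It was left out of the counts, because its dark wild type value was 76.6 FPKM in the pifq table, 9.01-fold apart after scaling; in that table pifq was at 57.6 FPKM.

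XTH30 (AT1G32170, chromosome 1, 11575320 to 11578030, plus strand) was at 64.3 FPKM in light against 259 FPKM in dark wild type (log2 -2.01). XTH30 was at 73.5 FPKM in det1-1 against 240.0 FPKM in dark wild type (log2 -1.71), and at 122 FPKM in pifq against 262 FPKM in dark wild type (log2 -1.11). It was lower in every comparison. XTH33 (AT1G10550), which carries a membrane anchor, was at 30.7 FPKM in light against 67.4 FPKM in dark wild type (log2 -1.13). XTH33 was at 40.7 FPKM in det1-1 against 62.5 FPKM in dark wild type (log2 -0.62), and at 13.3 FPKM in pifq against 44.8 FPKM in dark wild type (log2 -1.75). Its dark wild type differed by 1.46-fold between tables, just inside the 1.5-fold allowed. XTH27 (AT2G01850), known from the tracheary elements of leaf veins, was at 79.3 FPKM in light against 74.7 FPKM in dark wild type (log2 0.09). XTH27 was at 151 FPKM in det1-1 against 69.3 FPKM in dark wild type (log2 1.12), and at 62.4 FPKM in pifq against 72.4 FPKM in dark wild type (log2 -0.22). It passed 2-fold in det1-1 and was under it in light and pifq. XTH28 (AT1G14720), which acts in stamen filaments, was under 2-fold throughout, with log2 folds of 0.33 in light, 0.89 in det1-1 and 0.15 in pifq.

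Among the alpha expansins, 8 of 17 were lower and 3 higher in light, 2 of 17 lower and 2 higher in det1-1, and 5 of 16 lower and 4 higher in pifq. In det1-1 the 11.8% lower and 11.8% higher were near the 9.71% and 17.3% of all genes and say nothing particular of the class. EXPA9 (AT5G02260, chromosome 5, 463073 to 465273, plus strand) was at 21.8 FPKM in light against 188 FPKM in dark wild type (log2 -3.10). EXPA9 was at 21.1 FPKM in det1-1 against 174 FPKM in dark wild type (log2 -3.05), and at 27.0 FPKM in pifq against 182 FPKM in dark wild type (log2 -2.75). Its fold ranged from 6.75-fold lower in pifq to 8.60-fold lower in light. EXPA4 (AT2G39700, chromosome 2, 16543832 to 16545746, minus strand) was likewise lower everywhere, at 33.0 FPKM in light against 104 FPKM in dark wild type (log2 -1.66). EXPA4 was at 30.7 FPKM in det1-1 against 96.8 FPKM in dark wild type (log2 -1.66), and at 41.6 FPKM in pifq against 101 FPKM in dark wild type (log2 -1.29). EXPA11 (AT1G20190, chromosome 1, 6998335 to 6999839, minus strand) was at 20.6 FPKM in light against 160.0 FPKM in dark wild type (log2 -2.95). EXPA11 was at 80.4 FPKM in det1-1 against 148 FPKM in dark wild type (log2 -0.88), and at 43.5 FPKM in pifq against 155 FPKM in dark wild type (log2 -1.84). It was lower in light and pifq and under 2-fold in det1-1.

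EXPA8 and EXPA3 are the most abundant expansins of the dark wild type. EXPA8 (AT2G40610, chromosome 2, 16948791 to 16950705, minus strand) was at 48.5 FPKM in light against 252 FPKM in dark wild type (log2 -2.38). EXPA8 was at 182 FPKM in det1-1 against 233 FPKM in dark wild type (log2 -0.36), and at 246 FPKM in pifq against 244 FPKM in dark wild type (log2 0.01). In light it was 5.19-fold lower, and in pifq it was within 1% of the dark wild type. EXPA3 (AT2G37640, chromosome 2, 15787523 to 15790139, minus strand) was at 86.6 FPKM in light against 287 FPKM in dark wild type (log2 -1.73). EXPA3 was at 139 FPKM in det1-1 against 266 FPKM in dark wild type (log2 -0.94), and at 157 FPKM in pifq against 279 FPKM in dark wild type (log2 -0.83). It was lower in light, and in the mutants it was below dark wild type by less than 2-fold. EXPA2 (AT5G05290), known from germinating seeds, was at 3.82 FPKM in light against 14.9 FPKM in dark wild type (log2 -1.97). EXPA2 was at 18.3 FPKM in det1-1 against 13.8 FPKM in dark wild type (log2 0.40), and at 5.61 FPKM in pifq against 14.5 FPKM in dark wild type (log2 -1.37). It too was lower in light and pifq and not in det1-1. It overlaps AT5G05300 on the other strand by 61 bases.

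EXPA11 and EXPA2 are shown as the expansins lower in light and pifq that have a motif near the start. EXPA11 (chr1:6999859-6999944, minus strand) has a PBE-box 65 bases before the start, and EXPA2 (chr5:1568399-1568484, plus strand) has a G-box 255 bases before it. The capitals mark these 2 matches. The first bases of the EXPA2 stretch also hold a PBE-box, 289 bases before the start and left in lower case, and another lies outside the stretch at 181 bases.
EXPA11: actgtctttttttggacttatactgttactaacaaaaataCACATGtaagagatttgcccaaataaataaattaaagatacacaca
EXPA2: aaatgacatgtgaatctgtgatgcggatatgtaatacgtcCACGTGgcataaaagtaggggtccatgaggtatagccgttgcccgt

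EXPA1 and EXPA10 went the other way. EXPA1 (AT1G69530, chromosome 1, 26141726 to 26143538, plus strand), known for its part in guard cell walls and in leaf growth, was at 217 FPKM in light against 49.8 FPKM in dark wild type (log2 2.12). EXPA1 was at 254 FPKM in det1-1 against 46.1 FPKM in dark wild type (log2 2.46), and at 142 FPKM in pifq against 48.3 FPKM in dark wild type (log2 1.56). It was higher in light and in both mutants. EXPA10 (AT1G26770, chromosome 1, 9259432 to 9261313, plus strand), which promotes the growth of leaves and petioles, was at 71.4 FPKM in light against 11.0 FPKM in dark wild type (log2 2.69). EXPA10 was at 49.6 FPKM in det1-1 against 10.2 FPKM in dark wild type (log2 2.28), and at 37.4 FPKM in pifq against 10.7 FPKM in dark wild type (log2 1.80). Both were at least 2-fold higher in every compared group. EXPA5 (AT3G29030, chromosome 3, 11011262 to 11013451, minus strand), which acts in brassinosteroid-dependent growth, was at 21.5 FPKM in light against 20.2 FPKM in dark wild type (log2 0.09). EXPA5 was at 35.6 FPKM in det1-1 against 18.7 FPKM in dark wild type (log2 0.93), and at 55.0 FPKM in pifq against 19.6 FPKM in dark wild type (log2 1.49). It was near the dark level in light. EXPA6 (AT2G28950) was at 49.5 FPKM in light against 33.8 FPKM in dark wild type (log2 0.55). EXPA6 was at 43.5 FPKM in det1-1 against 31.4 FPKM in dark wild type (log2 0.47), and at 92.1 FPKM in pifq against 32.8 FPKM in dark wild type (log2 1.49). These 2 were more than 2-fold higher in pifq and under 2-fold in light and det1-1; the difference between the groups was not tested.

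EXPA1 (chr1:26141485-26141572, plus strand) and EXPA10 (chr1:9259261-9259348, plus strand) are shown because both hold 2 overlapping PBE-boxes on opposite strands, which form the 8 bases CACATGTG in capitals, at 201 and 131 bases before the start. These 8 bases were looked up after they had been seen. They occur within 300 bases of the start of 0.459% of protein-coding genes and of no other member. Within 1000 bases, XTH16, XTH27 and XTH28 also hold 2 PBE-boxes that overlap in this way. XTH28 was under 2-fold throughout, XTH27 passed 2-fold in det1-1 alone, and XTH16 was not counted. The EXPA1 and EXPA10 stretches share 47 of 88 bases.
EXPA1: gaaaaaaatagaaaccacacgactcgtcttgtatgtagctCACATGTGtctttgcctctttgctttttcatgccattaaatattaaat
EXPA10: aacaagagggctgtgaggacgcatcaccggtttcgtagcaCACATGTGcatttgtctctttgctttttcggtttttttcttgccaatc

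EXPA16 (AT3G55500) was at 19.1 FPKM in light against 8.45 FPKM in dark wild type (log2 1.18). EXPA16 was at 5.39 FPKM in det1-1 against 7.84 FPKM in dark wild type (log2 -0.54), and at 15.2 FPKM in pifq against 8.22 FPKM in dark wild type (log2 0.89). It was higher in light and under 2-fold in both mutants. EXPA14 (AT5G56320), tied to lateral root emergence, was at 6.23 FPKM in light against 13.6 FPKM in dark wild type (log2 -1.13). EXPA14 was at 8.77 FPKM in det1-1 against 12.6 FPKM in dark wild type (log2 -0.53), and at 10.7 FPKM in pifq against 13.2 FPKM in dark wild type (log2 -0.30). Its largest difference was the lower level in light. EXPA20 (AT4G38210) was at 6.15 FPKM in light against 12.4 FPKM in dark wild type (log2 -1.01). EXPA20 was at 6.69 FPKM in det1-1 against 10.7 FPKM in dark wild type (log2 -0.68), and at 17.9 FPKM in pifq against 10.9 FPKM in dark wild type (log2 0.72). Both passed 2-fold, as lower, in light and were under it in both mutants. EXPA20 is overlapped over 1061 bases by a long non-coding gene on the other strand, and its call in light was lost with 1 FPKM added to both groups. EXPA13 (AT3G03220) and EXPA15 (AT2G03090) were under 2-fold in all comparisons where they were analysed, with EXPA13 not counted in pifq because it had 2 entries there. EXPA13 was at 20.0 FPKM in light against 13.8 FPKM in dark wild type (log2 0.54) and 10.6 FPKM in det1-1 against 12.7 FPKM in dark wild type (log2 -0.27). EXPA15 was at 8.36 FPKM in light against 6.53 FPKM in dark wild type (log2 0.36). EXPA15 was at 3.53 FPKM in det1-1 against 6.05 FPKM in dark wild type (log2 -0.78), and at 10.3 FPKM in pifq against 6.34 FPKM in dark wild type (log2 0.70).

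The beta class was divided. EXPB1 (AT2G20750, chromosome 2, 8940833 to 8942706, plus strand) was lower, at 9.66 FPKM in light against 31.0 FPKM in dark wild type (log2 -1.68) and 11.0 FPKM in det1-1 against 28.7 FPKM in dark wild type (log2 -1.39), and has no entry used here for pifq. EXPB3 (AT4G28250, chromosome 4, 13999625 to 14002124, minus strand) was at 58.3 FPKM in light against 10.9 FPKM in dark wild type (log2 2.42). EXPB3 was at 20.1 FPKM in det1-1 against 10.1 FPKM in dark wild type (log2 0.99), and at 14.7 FPKM in pifq against 10.6 FPKM in dark wild type (log2 0.48). In light EXPB3 was 5.35-fold higher, and in det1-1 it was just under 2-fold. The expansin-like gene EXLA2 (AT4G38400, chromosome 4, 17978422 to 17979740, minus strand) was at 14.5 FPKM in light against 78.4 FPKM in dark wild type (log2 -2.43). EXLA2 was at 31.8 FPKM in det1-1 against 72.7 FPKM in dark wild type (log2 -1.19), and at 23.4 FPKM in pifq against 73.8 FPKM in dark wild type (log2 -1.66). It was lower in each. EXLA3 (AT3G45960) has 2 entries in every table and was not counted; its abundant entry gave 25.9 FPKM in light against 74.8 FPKM in dark wild type (log2 -1.53). EXLA3 was at 76.0 FPKM in det1-1 against 68.1 FPKM in dark wild type (log2 0.16), and at 19.8 FPKM in pifq against 70.7 FPKM in dark wild type (log2 -1.84). EXLA1 (AT3G45970), its neighbour, had no entry under its identifier for light, det1-1 or pifq and so was not analysed.

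**Figure D2:**
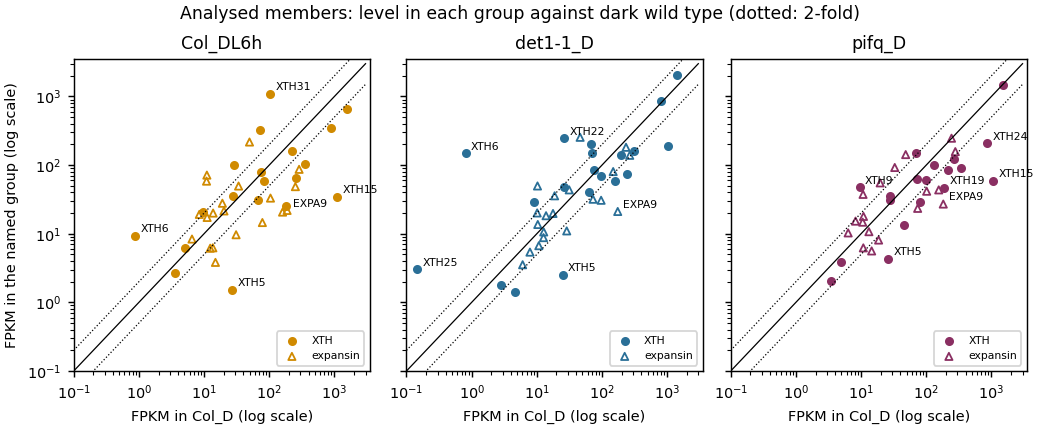
FPKM of each analysed member in the named group (vertical, log scale) against dark wild type of the same table (horizontal, log scale), with XTHs as filled circles, expansins as open triangles, the line of equal level and dotted lines at 2-fold. In light the members under the lower dotted line had a median of 171 FPKM in dark wild type and those above the upper line a median of 11.0 FPKM.

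Hypocotyl-type members were taken as 20 genes listed for elongating etiolated or shaded hypocotyls: XTH4, XTH5, XTH15 to XTH20, XTH30, EXPA1 to EXPA6, EXPA8, EXPA10, EXPA11, EXPA15 and EXPB1. In light, 12 of 19 analysed (63.2%) were lower and 2 (10.5%) higher, with a median log2 fold of -1.68. The 25 other members gave 6 lower and 7 higher of 20, with a median of 0.44. In det1-1, 7 of 19 hypocotyl-type members were lower and 2 higher (median -0.88), beside 2 lower and 6 higher of 21 others (median 0.16). In pifq, 9 of 18 were lower and 4 higher (median -0.97), beside 6 lower and 2 higher of 19 others (median -0.35). Among all genes analysed, 10.1% were lower and 12.4% higher in light, 9.71% and 17.3% in det1-1, and 13.2% and 12.9% in pifq. The list is loose, since XTH17 to XTH20 are known from roots and EXPA2 from germinating seeds as well. It was drawn up with these results known, so the contrast is a description.

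In every comparison the hypocotyl-type members called higher were alpha expansins, while those called lower were XTHs and expansins, alpha expansins among them. The median dark level was greater for those lower, but the ranges of the dark levels overlapped. In light, those lower were XTH4, XTH5, XTH15, XTH17, XTH19, XTH30, EXPA2, EXPA3, EXPA4, EXPA8, EXPA11 and EXPB1, with levels of 1.51 to 655 FPKM in light (median 33.6) and 14.9 to 1534 FPKM in dark wild type (median 217). Those higher were EXPA1 and EXPA10, at 217 and 71.4 FPKM in light and 49.8 and 11.0 FPKM in dark wild type. In det1-1 the higher members were again EXPA1 and EXPA10, and XTH4, XTH17, EXPA2, EXPA3, EXPA8 and EXPA11 were among 10 under 2-fold. In pifq the higher members were EXPA1, EXPA5, EXPA6 and EXPA10, at 37.4 to 142 FPKM in pifq and 10.7 to 48.3 FPKM in dark wild type. The members lower in pifq had a median of 46.8 FPKM in pifq and 188 FPKM in dark wild type. No XTH of this list was 2-fold higher in any comparison. The dark level is also the divisor of each fold, so a high dark level in members that were lower is in part built in.

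**Figure D3:**
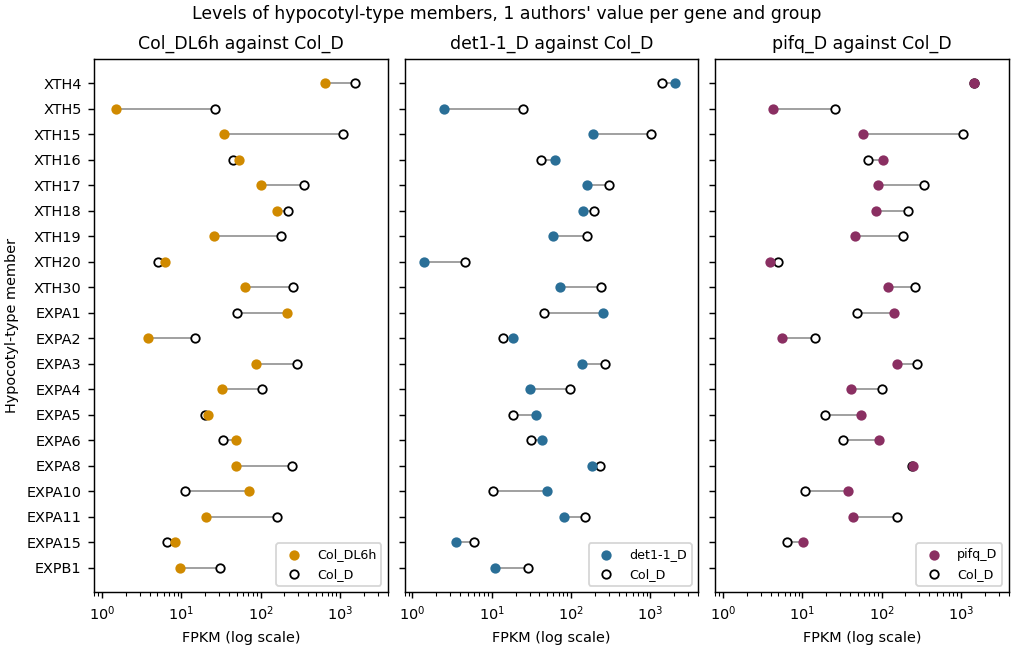
FPKM (log scale) of the 20 hypocotyl-type members in light, det1-1 and pifq (filled) and in dark wild type of the same table (open), joined by a line. The filled point lies left of the open one in all panels for XTH5, XTH15, XTH17, XTH18, XTH19, XTH30, EXPA3, EXPA4 and EXPA11. It lies right of the open one in all panels for XTH16, EXPA1, EXPA5, EXPA6 and EXPA10. Not all of these differences reached 2-fold. XTH16 is drawn but was not counted, and EXPB1 has no point for pifq.

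Sums were taken over every entry of the 43 members in a table, including those left out of the counts (XTH16, XTH32, XTH25 and genes with 2 entries). XTH8 is in the pifq sum alone and EXPB1 is absent from it, so sums are compared within a table. The summed FPKM of all members was 4243 in light against 6484 in dark wild type, 5724 in det1-1 against 5964 in dark wild type, and 3808 in pifq against 6505 in dark wild type. The summed FPKM of the XTHs was 3456 in light against 5084 in dark wild type, 4664 in det1-1 against 4667 in dark wild type, and 2815 in pifq against 5179 in dark wild type. For the expansins it was 787 in light against 1401 in dark wild type, 1060.3 in det1-1 against 1297 in dark wild type, and 993 in pifq against 1326 in dark wild type. The XTH sums of det1-1 and its dark wild type were nearly equal, but their make-up differed. XTH15 was 4.06% of the XTH sum in det1-1 and 21.8% in dark wild type, while XTH4 was 44.3% in det1-1 and 30.5% in dark wild type. XTH4, XTH15 and XTH24 together made up 29.8% of the sum in light against 69.0% in dark wild type, 66.7% in det1-1 against 69.7% in dark wild type, and 60.9% in pifq against 65.7% in dark wild type.

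In light the hydrolytic XTH31 alone was 31.8% of the XTH sum, against 2.03% in dark wild type. The sum of group II was 885 FPKM in light against 2899 FPKM in dark wild type. In det1-1 it was 1807 FPKM against 2641 FPKM in dark wild type, and in pifq 665 FPKM against 2850 FPKM in dark wild type. The sum of group III, which holds XTH31 and XTH32, was 1559 FPKM in light against 541 FPKM in dark wild type. In both mutants it was below dark wild type, at 408 FPKM in det1-1 against 502 FPKM in dark wild type, and at 345 FPKM in pifq against 584 FPKM in dark wild type. EXPA1 was 27.5% of the expansin sum in light against 3.55% in dark wild type, 23.9% in det1-1 against 3.56% in dark wild type, and 14.3% in pifq against 3.64% in dark wild type. The leading expansin was EXPA1 in light and det1-1, EXPA8 in pifq, and EXPA3 in dark wild type.

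**Figure D4:**
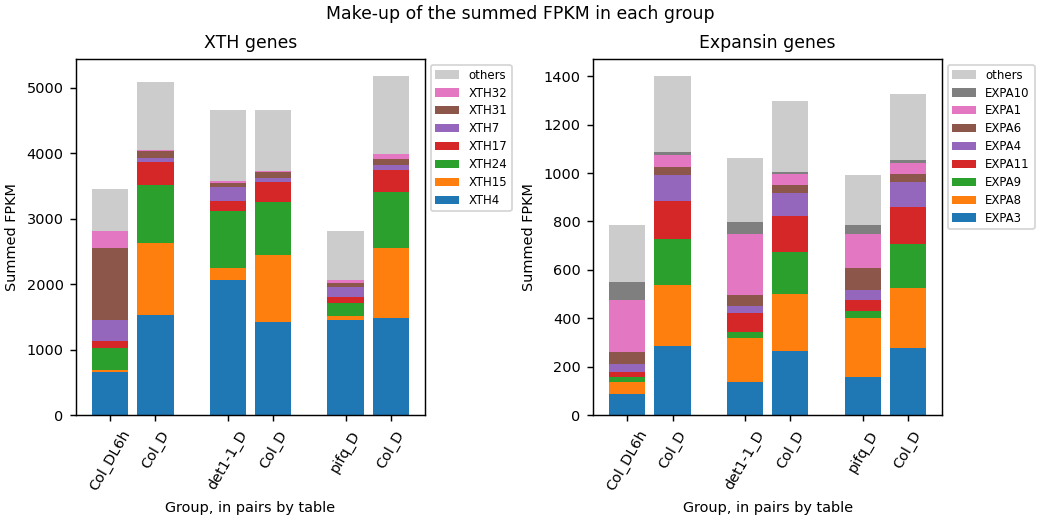
Summed FPKM of the XTH genes (left) and the expansin genes (right) in each group, in pairs by table, with the main members coloured and the others in grey. XTH15 is a broad band in every dark wild type bar and thin in light, det1-1 and pifq, and XTH31 is 31.8% of the XTH bar in light.

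Several members are known from single tissues, and markers of those tissues were read beside them. EXPA7 (AT1G12560) and EXPA18 (AT1G62980) act in root hair growth. EXPA7 was at 17.2 FPKM in light against 11.1 FPKM in dark wild type (log2 0.63). EXPA7 was at 13.6 FPKM in det1-1 against 10.3 FPKM in dark wild type (log2 0.40), and at 6.22 FPKM in pifq against 10.8 FPKM in dark wild type (log2 -0.80). It stayed under 2-fold throughout. EXPA18 was at 27.8 FPKM in light against 19.1 FPKM in dark wild type (log2 0.54). EXPA18 was at 19.7 FPKM in det1-1 against 17.7 FPKM in dark wild type (log2 0.15), and at 8.08 FPKM in pifq against 18.6 FPKM in dark wild type (log2 -1.20). Both were highest in light and lowest in pifq, and EXPA18 was 2.30-fold lower there. EXPA7 overlaps AT1G12570 by 23 bases, a gene that reached 2.08 FPKM in det1-1. The 6 root hair markers (COBL9, PRP3, LRX1, RSL4, RHD6 and ADF8) summed to 148 FPKM in light against 104 FPKM in dark wild type. For det1-1 the sum was 136 FPKM against 95.2 FPKM in dark wild type. In pifq it was 49.97 FPKM against 100.4 FPKM in dark wild type. Of these markers 0 were called in light or det1-1 and 1 of 6, PRP3 (-1.47), was lower in pifq. The summed level of these markers and both expansins were thus on the same side of dark wild type in each comparison. PRP3 was the largest part of that sum in every group, so the sum mostly follows PRP3. RHD6 lay on the other side from the sum in det1-1 (log2 -0.41) and in pifq (log2 0.08), by less than 2-fold. The remaining markers lay on the side of the sum in each comparison. The part of root hair number in the folds was not tested.

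Of all genes analysed, 10.1% were lower in light, 9.71% in det1-1 and 13.2% in pifq. XTH17 to XTH21, the XTHs known from roots, had 2 of 5 lower in light, 2 of 5 in det1-1 and 3 of 5 in pifq. Of 4 root endodermis markers read beside them (CASP1, CASP2, ESB1 and PER64), 0 were called in light, 3 of 3 analysed were lower in det1-1, and 3 of 4 were lower in pifq. They summed to 1078.5 FPKM in light against 987 FPKM in dark wild type. For det1-1 the sum was 365 FPKM against 904 FPKM in dark wild type, and for pifq it was 385 FPKM against 936 FPKM in dark wild type. In sum these markers were thus lower in both mutants and near the dark level in light. The root hair sum was above dark wild type in det1-1 (1.43-fold) but likewise below it in pifq (0.498-fold). The part of root tissue in the folds of these XTHs was not tested.

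Stomatal lineage markers (SPCH, MUTE, FAMA, EPF1 and EPF2) stood beside EXPA1, which is known from guard cells. Their summed level was 18.4 FPKM in light against 9.49 FPKM in dark wild type. For det1-1 the sum was 19.3 FPKM against 8.80 FPKM in dark wild type. In pifq it was 40.2 FPKM against 7.37 FPKM in dark wild type. Called higher were 2 of 3 analysed in light, 2 of 3 in det1-1 and 5 of 5 in pifq, and none was at 0. In light and det1-1, MUTE was under the minimum level and FAMA, with 2 entries, was not counted. The FAMA entries had log2 folds of -3.11 and 0.09 in light, and 0.37 and 2.23 in det1-1. SPCH and EPF2, and MUTE in pifq, were under 1 FPKM in dark wild type, so those could be analysed as higher genes or not at all. They are all the calls in light and det1-1 and 3 of the 5 in pifq. EXPA1 had log2 folds of 2.12 in light, 2.46 in det1-1 and 1.56 in pifq. The part of the stomatal lineage in these folds was not tested.

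The 300 bases before each annotated gene start of every member were searched for the G-box CACGTG and the PBE-box CACATG on both strands (TAIR10.1, RefSeq annotation). A G-box was found for 1 of 45 members (2.22%), beside 7.09% of 27443 protein-coding genes, and a PBE-box for 9 of 45 (20.0%), beside 13.1%. With 1000 bases the shares were 13.3% of members beside 14.8% of all genes for the G-box, and 55.6% beside 37.7% for the PBE-box. Among members lower in pifq, 5 of 15 had a PBE-box within 300 bases, against 2 of 6 of those higher and 0 of 16 under 2-fold. Those 5 include XTH17 and XTH18, whose matches lie in a shared run of bases and are not separate cases. Within 1000 bases that contrast was gone, with 8 of 15 lower, 2 of 6 higher and 9 of 16 under 2-fold. In det1-1, 0 of 9 lower members had a PBE-box within 300 bases, against 3 of 8 of those higher and 6 of 23 under 2-fold. In light the shares within 300 bases were 4 of 18 lower, 2 of 9 higher and 2 of 12 under 2-fold. XTH15, XTH5 and EXPA9, the lowest in pifq, had neither motif in that window. A match is a description of letters and not a binding site.

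**Figure D5:**
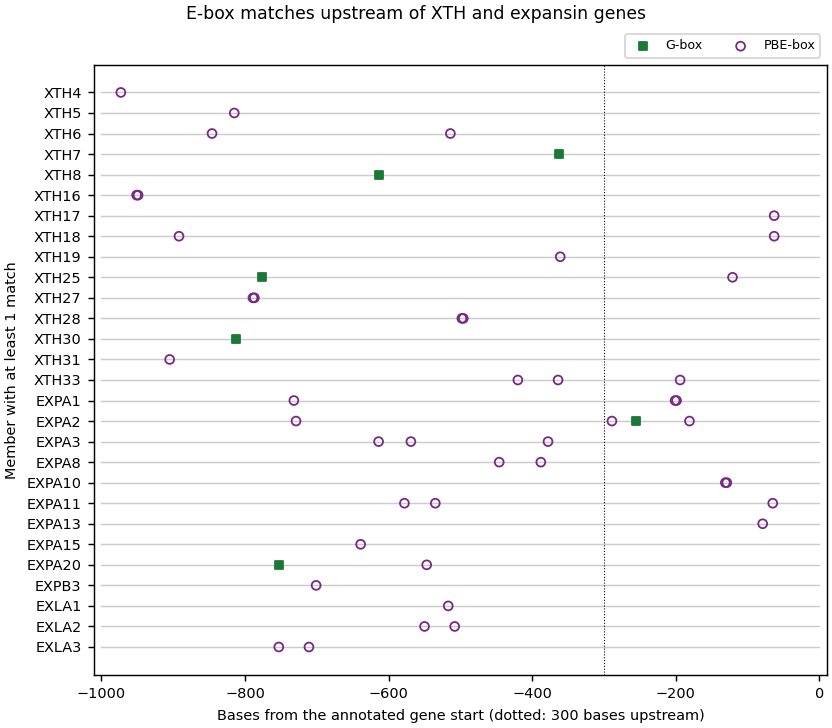
Positions of G-box (filled squares) and PBE-box (open circles) matches in the 1000 bases before the annotated start of the 28 members with at least 1 match, as bases from the start. XTH17 and XTH18 have a match at the same distance of 63 bases, and EXPA2 is the member with a G-box inside 300 bases.

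Other genes of xyloglucan metabolism were counted in the same way. Of 11 synthesis genes, 10 were analysed in each comparison, with 1 lower and 1 higher in light, 0 lower and 1 higher in det1-1, and 0 lower and 1 higher in pifq. Among all genes analysed, 10.1% were lower and 12.4% higher in light, 9.71% and 17.3% in det1-1, and 13.2% and 12.9% in pifq. For 10 genes the counts are near those shares and say nothing particular of synthesis. XLT2, which adds galactose to xyloglucan, was the higher one, at 19.9 FPKM in light against 6.26 FPKM in dark wild type (log2 1.67). XLT2 was at 21.3 FPKM in det1-1 against 5.81 FPKM in dark wild type (log2 1.88), and at 17.4 FPKM in pifq against 6.09 FPKM in dark wild type (log2 1.52). CSLC4, which makes the glucan backbone, was lower in light, at 20.9 FPKM in light against 76.7 FPKM in dark wild type (log2 -1.88), and under 2-fold in det1-1 (-0.94) and pifq (-0.78). The 3 genes that trim xyloglucan side chains in the wall were all lower in light. The alpha-xylosidase gene XYL1 was at 54.4 FPKM in light against 123 FPKM in dark wild type (log2 -1.18), the fucosidase gene AXY8 at 21.0 FPKM in light against 44.7 FPKM in dark wild type (log2 -1.09), and the galactosidase gene BGAL10 at 10.7 FPKM in light against 48.8 FPKM in dark wild type (log2 -2.19). In det1-1 none of the 3 was lower (0.39, 0.73 and 0.31). In pifq XYL1 (-0.31) was under 2-fold, AXY8 (0.99) was just under it as higher, and BGAL10 had no entry under its identifier. The dark wild type of AXY8 was 64.0 FPKM beside pifq, against 44.7 FPKM beside light and 41.4 FPKM beside det1-1.

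The values of a member in dark wild type can be compared over the 3 tables, since the labels give 1 set of dark wild type libraries. Of 39 members with a single entry in each, 33 agreed within 1.1-fold after scaling and 37 within 1.5-fold. The exceptions were XTH32, described above, and XTH16 (AT3G23730), which was 1.55-fold apart. XTH16, a close relative of XTH15, was at 53.6 FPKM in light against 45.4 FPKM in dark wild type (log2 0.24). XTH16 was at 62.8 FPKM in det1-1 against 42.1 FPKM in dark wild type (log2 0.58), and at 105 FPKM in pifq against 68.3 FPKM in dark wild type (log2 0.62). It was under 2-fold in all of them, unlike XTH15.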

How the data were processed

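RNA-seq of whole seedlings gave 12 libraries in 4 groups of 3, grouped by their titles. TopHat, Cufflinks and the TAIR10 build are listed in the submitters' processing notes; versions, settings, annotation and strand are not given in the sources used here. As FPKM, each of 3 deposited tables holds a dark wild type column and a column of the compared group, beside the authors' log2 ratio. The unit FPKM was inferred from Cufflinks and from the values. The planned test per library was not possible, since no table has a column per library.

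Log2 folds were computed from the deposited FPKM with no pseudocount. The deposited ratio differed by at most 1.03e-05 for the members analysed. A gene was analysed with a single entry, a comparison made by the authors, both groups above 0, at least 1 FPKM in the higher, and dark wild type values within 1.5-fold across tables after scaling (factors 1.08 for det1-1 and 1.03 for pifq). The call rule was run on simulated data without noise, with changed genes set past 2-fold. That checks the code alone and not the error of the measured values. One root marker is not reported here. Members, lists and the rule for named genes (full values for members past 2-fold and 10 FPKM in a table, others by range or clause) were chosen with earlier results of these data known. Repeated 32-base stretches and upstream windows were read from TAIR10.1 with the RefSeq annotation; the files hold no coordinates. Python 3.11.15, pandas 2.3.3 and numpy 2.4.6 were used.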

Additional observations from a re-analysis of the deposited data

Results flagged for a closer look

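Some member entries stood in no count and were at least 2-fold above dark wild type. XTH32 was at 249 FPKM in light against 8.75 FPKM in dark wild type and at 25.2 FPKM in det1-1 against 8.11 FPKM in dark wild type; it was left out because its dark wild type was 76.6 FPKM in the pifq table. The second entry of XTH6 in the pifq table was at 45.9 FPKM in pifq against 0.838 FPKM in dark wild type; it was left out because that identifier has 2 entries there. Outliers among libraries and differences between groups over libraries could not be looked for, because each group has a single value.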

How the results depend on the processing

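The medians stayed below 0 under all settings tried, between -0.48 and -0.40 in light, -0.41 and -0.26 in det1-1, and -0.76 and -0.33 in pifq; those nearest 0 in both mutants came with 5 FPKM added. The counts of members called stayed within 1.5-fold, with 1 exception: with a call at 1.5-fold, 16 members were lower in det1-1 in place of 9. The log2 ratio of the summed FPKM in det1-1 was -0.06, and 0.16 without XTH15, a setting chosen after seeing the data; without XTH31, also chosen so, the ratio in light was -1.02 in place of -0.61. Of 65 calls of single members, 1 was lost with 1 FPKM added to both groups (EXPA20 in light) and 8 with 5 FPKM added: XTH9, EXPA14, EXPA16 and EXPA20 in light, XTH20 and XTH25 in det1-1, and EXPA2 and EXPA18 in pifq. No call of a member changed sign, and EXPB3 in det1-1 passed 2-fold after centring on all genes. Without the tolerance between tables, 10 members were higher in light and 9 in det1-1. No paired analysis was possible because each group has a single value per gene, and for the same reason no replicate could be left out. Depth, and so the precision of low values, is unknown.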
